A study of Mus musculus with 8 samples.

Results

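The genes for the proteins of the mitochondrial ribosome were examined for H3K4me3, a histone mark that lies mainly at the promoters of genes that are in use. The members were all peaks of the deposited H3K4me3 table whose gene symbol starts with *Mrpl* or *Mrps* and a number. The rule found 77 of 35486 listed peaks, under the names of 59 of 20871 genes. The mark was measured in CD45-CD31-EpCAM+ tumor cells sorted from lung tumors. Libraries 1 and 2 came from KL mice and libraries 3 and 4 from KLG4m/m mice. KL is an inducible lung tumor model that carries Lkb1fl/fl, and KLG4m/m mice carry Gpx4m/m in addition. Both groups received Ad-Cre, which starts the tumors and deletes *Lkb1* in any cell it enters, and both received tamoxifen. In KLG4m/m tumor cells Ad-Cre also switches on a tamoxifen-dependent Dre recombinase that deletes *Gpx4*, the enzyme that reduces lipid peroxides, so that the tumor model, the virus and the drug were shared and the *Gpx4* allele differed. The tumors were collected 10 weeks after Ad-Cre from age- and sex-matched mice. The protocol in the labels describes cleavage by an antibody-guided micrococcal nuclease and gives another number of mice than the libraries show, so the p-values below measure the spread between libraries. The 4 H3K27ac samples were not analysed here.

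The mitochondrial ribosome (mitoribosome) translates the few messenger RNAs made from mitochondrial DNA, which encode core subunits of the respiratory chain. All of its proteins are encoded in the nucleus, made in the cytosol and imported. Some descend from the bacterial ribosome and others were added later in evolution. Their genes are active in nearly every cell, and binding sites for NRF1, for ETS factors such as GABP and for YY1 are known from many of their promoters.

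The libraries held 3244495 to 3463731 reads in the listed peaks. All member peaks were 400 bp long, so their levels can be compared with each other. Levels are given as CPM, counts scaled to a common total of reads in peaks with TMM factors, so a uniform gain or loss of the mark over the genome would leave them as they are. In a bulk sample, fewer cells that carry the mark and less mark per cell cannot be told apart. The *Gpx4* promoter peak, which says nothing about the deleted part of the gene, held 242 and 236 reads in KL and 304 and 301 reads in KLG4m/m cells (log2 fold change 0.40 ± 0.09 SE, edgeR adjusted p = 0.00854). In KLG4m/m mice the Dre recombinase gene and a CAG promoter were inserted at the *Gpx4* locus, and their part in this difference was not tested. At *Stk11*, 1 promoter peak was also higher (log2 fold change 0.62, edgeR adjusted p = 0.0014) and another did not pass (0.19, adjusted p = 0.202). No member peak lay within 1 Mb of a *Gpx4* or *Stk11* peak. Cell type markers were compared on reads summed over the peaks of a gene, for which 5.38% of all genes were higher and 9.63% lower in KLG4m/m cells. Of 12 epithelial and alveolar markers 10 had a listed peak, 5 were lower and 0 higher in KLG4m/m cells, and their summed signal was 474 to 485 CPM in KL and 371 to 388 CPM in KLG4m/m libraries. Of 12 leukocyte markers 10 were listed, 4 were higher and 0 lower, and their sum was 255 to 264 CPM against 330 to 333 CPM. Of 10 endothelial and fibroblast markers 8 were listed, 1 was higher and 1 lower, and their sum was 220 to 259 CPM against 216 to 244 CPM. Among the markers of the sort, *Epcam* was lower in KLG4m/m cells (182 and 200 against 115 and 94 reads, adjusted p = 1.56e-06), whereas *Ptprc* (CD45; 189 and 207 against 241 and 204 reads) and *Pecam1* (CD31; 216 and 249 against 244 and 265 reads) did not pass the test and were not at 0. The part of these shifts in the values below was not tested.

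The promoters of this family are shown first, since the letters of 3 motifs were more frequent in them than in all promoters together. Many members held none of these, and genes for respiratory chain subunits and cytosolic ribosomal proteins held YY1 letters about as often. RefSeq windows from 250 bases before to 50 after the start, on GRCm38.p6, were found for 51 of the 59 genes (55 windows). The positions of the peaks themselves are those of the deposited table, whose starts lay within 100 bp of a GRCm38 start for 1 of these 51 genes, so the windows were matched by gene symbol and no position was converted. In the sequences below, which run from 200 bases before to 30 after the start, capitals mark the letters of 3 motifs on either strand: GCATGCGC (NRF1), CCGGAAG (ETS) and AANATGGCG (YY1). *Mrpl14* is shown because it holds the only member peak that passed the test. The others, chosen after their values were seen, show the kinds of match found: *Mrpl58* and *Mrps27* carry ETS and YY1 letters, *Mrpl32* repeated NRF1 letters, and *Mrpl33* NRF1 beside ETS letters.
Mrpl14 (chr17:45686149-45686378, + strand): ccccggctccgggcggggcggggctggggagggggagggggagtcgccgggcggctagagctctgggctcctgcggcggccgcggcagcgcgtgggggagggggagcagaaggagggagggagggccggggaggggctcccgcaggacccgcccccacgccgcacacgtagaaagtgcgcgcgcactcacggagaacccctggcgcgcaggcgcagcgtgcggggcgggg
Mrpl58 (chr11:115403552-115403781, + strand): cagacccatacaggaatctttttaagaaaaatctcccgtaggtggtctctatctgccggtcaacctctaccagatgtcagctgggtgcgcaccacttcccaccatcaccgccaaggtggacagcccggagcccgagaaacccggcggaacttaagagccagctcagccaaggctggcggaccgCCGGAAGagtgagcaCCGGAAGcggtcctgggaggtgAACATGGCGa
Mrps27 (chr13:99344586-99344815, + strand): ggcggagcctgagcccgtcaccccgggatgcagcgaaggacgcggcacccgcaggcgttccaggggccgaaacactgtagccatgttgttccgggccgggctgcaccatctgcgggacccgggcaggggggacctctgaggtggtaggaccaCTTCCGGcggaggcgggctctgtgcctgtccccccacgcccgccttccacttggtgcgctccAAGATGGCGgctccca
Mrpl32 (chr13:14613008-14613237, - strand): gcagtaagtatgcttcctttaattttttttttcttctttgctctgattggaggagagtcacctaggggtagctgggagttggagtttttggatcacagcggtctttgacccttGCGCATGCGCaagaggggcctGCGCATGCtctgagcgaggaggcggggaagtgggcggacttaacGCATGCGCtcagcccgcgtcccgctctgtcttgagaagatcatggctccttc
Mrpl33 (chr5:31613751-31613980, + strand): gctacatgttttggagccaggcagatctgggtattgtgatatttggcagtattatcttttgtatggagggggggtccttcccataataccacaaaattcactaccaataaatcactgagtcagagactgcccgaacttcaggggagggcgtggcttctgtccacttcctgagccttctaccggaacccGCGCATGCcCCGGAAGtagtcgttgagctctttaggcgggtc

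ETS letters stood in 20 of the 55 member windows (36.4%), against 13.7% of the 14770 windows of all genes with a start-site peak and 8.86% of all 32851 windows. NRF1 letters stood in 8 member windows (14.5%), against 4.39% and 2.71%. YY1 letters also stood in 8 (14.5%), against 3.59% and 2.38%. Windows of the genes for cytosolic ribosomal proteins held ETS letters in 28.3%, YY1 letters in 13.2% and NRF1 letters in 5.66%, and those of the genes for respiratory chain subunits held them in 18.8%, 14.6% and 10.4%. GGGCGG, the letters of SP1, stood in 47.3% of member windows and 56.9% of windows with a start-site peak. CCAAT, the letters of NF-Y, stood in 43.6% against 36%, TATAAA (the TATA box) in 9.09% against 8.15%, and the E-box CACGTG in 3.64% against 9.23%. A window with several matches was counted once, and ETS, NRF1 and YY1 matches overlapped in none of the printed sequences. The G and C content of the member windows had a median of 57.7% (43.3% to 78%), against 59.7% for windows with a start-site peak. Member genes with any of the 3 motifs had a median start-site signal of 77.3 CPM (29 genes) and those with none 85.6 CPM (22 genes). Across the 51 genes, which share the 4 libraries, G and C content and signal had a Pearson r of 0.21 and a Spearman rho of 0.18. A match is a run of letters and was not measured as a bound site.

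**Figure D1:**
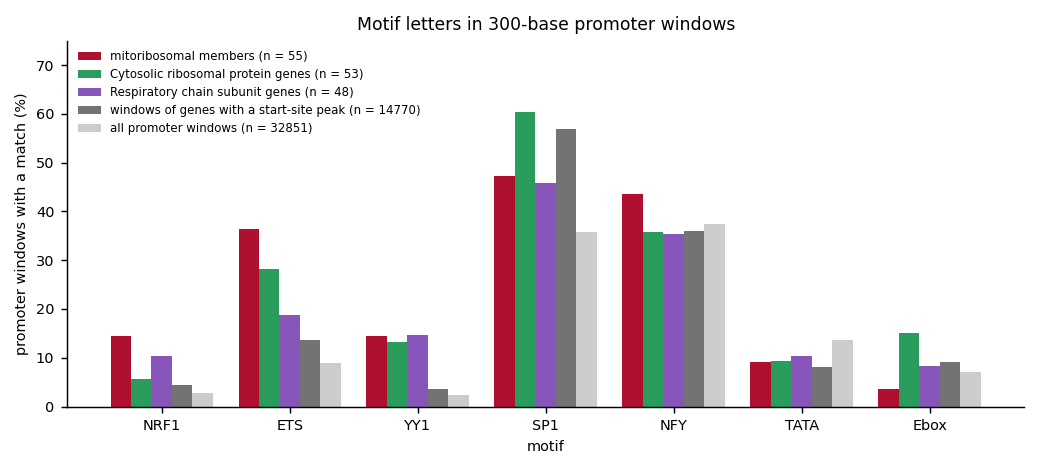
Share of RefSeq promoter windows (y axis, percent) that hold the letters of each of 7 motifs (x axis), for the mitoribosomal members, cytosolic ribosomal protein genes, respiratory chain subunit genes, genes with a start-site peak and all windows; n is the number of windows. The members stand at 36.4% for ETS letters, against 13.7% of windows with a start-site peak, and near the other groups for TATA letters.

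Many genes of the family had the start of another gene close to their own. Of the 69 genes with a promoter window among the 78 *Mrpl* and *Mrps* genes looked for, 25 (36.2%) had the start of another protein-coding gene on the opposite strand within 1000 bp, against 9.61% of 17492 protein-coding genes. The table gives each peak to 1 gene. Of the 78 genes 19 had no peak under their own name. Of the 18 of these with a promoter window, 13 had an opposite-strand start 8 to 614 bp away (11 protein-coding, 2 long non-coding), and all 13 neighbors had a listed start-site peak. The other 5 had no such start nearby. Those neighbor peaks had a mean signal of 74.7 to 112 CPM. Examples are *Mrps11*, whose start lies 42 bp from that of *Mrpl46*, so that 1 peak stands for a small and a large subunit gene, *Mrpl49*, 192 bp from *Fau*, itself the gene of a cytosolic ribosomal protein, and *Mrpl21*, 32 bp from *Ighmbp2*. In the other direction, 14 of the 51 listed members with a window had a protein-coding neighbor of this kind, and for 12 of the 14 the neighbor had no start-site peak of its own in the table, as for *Mrpl43* with *Twnk*, the mitochondrial DNA helicase, and *Mrps12* with *Sars2*, the mitochondrial seryl-tRNA synthetase. Where the starts lie as close as 42 bp, signal at 1 peak cannot be told apart between the paired genes. The pairs were not all of this kind: *Zfp661* beside *Mrps5* and *Ppp1r10* beside *Mrps18b* had start-site peaks of their own, and *Pnpla7* starts 935 bp from *Mrpl41*. The 14 members with a protein-coding neighbor had a median start-site signal of 95.4 CPM (56.3 to 157), and the 37 without one 76.8 CPM (34.2 to 127). Of the 13 neighbor peaks of unlisted members 1 was lower, beside 8.43% of all start-site peaks: that of *Gga3* beside *Mrps7* (282 and 314 reads in KL, 236 and 208 in KLG4m/m, log2 fold change -0.37, edgeR adjusted p = 0.0193).

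Every listed member had a peak at its start. Of the 77 peaks 62 were start-site peaks, meaning within 1000 bp of an annotated start, and 48 of the 62 overlapped the start itself. They held 56 to 547 reads per library. The signal at the start was strong: the median was 80 CPM (interquartile range 58.7 to 94.8), above that of 84% of all 17073 start-site peaks, whose median was 41.2 CPM. Respiratory chain subunit genes (84 CPM, 70 peaks) and cytosolic ribosomal protein genes (72.1 CPM, 60 peaks) had medians of a like size. The range within the family was 4.59-fold when the strongest start-site peak of each gene was used.

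*Mrpl41*, a large subunit protein without a bacterial counterpart, had the highest signal, with 156 and 152 CPM in KL and 159 and 161 CPM in KLG4m/m libraries. *Mrpl47* followed with 140, 131, 123 and 130 CPM, *Mrps14* with 118, 130, 129 and 129 CPM, and *Mrpl50* with 129, 121, 129 and 126 CPM, in the same order of libraries. *Mrpl41* lay above the next gene in every library, and the other 3 overlapped each other. At the low end, *Mrps10* held 37.4 and 37.4 CPM in KL and 27.3 and 34.7 CPM in KLG4m/m libraries. *Mrpl10*, of the stalk that recruits translation factors, held 42.9, 39.5, 43.5 and 42.1 CPM, *Mrpl3*, a core protein near the peptidyl transferase center, 48, 42.9, 45.8 and 37.8 CPM, and *Mrpl24* 40, 43.8, 44.7 and 47.4 CPM. *Mrps10* lay below *Mrpl10* in all libraries, and the 3 others overlapped. Along the order of all 59 genes, the 4 libraries of neighboring genes failed to overlap in 2 of 58 pairs, those at its ends. Genes farther apart in the order did separate: *Mrpl18* (112 to 122 CPM) lay above *Mrpl43* (73.5 to 83 CPM), and *Mrpl43* above *Mrpl24*, in every library.

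**Figure D2:**
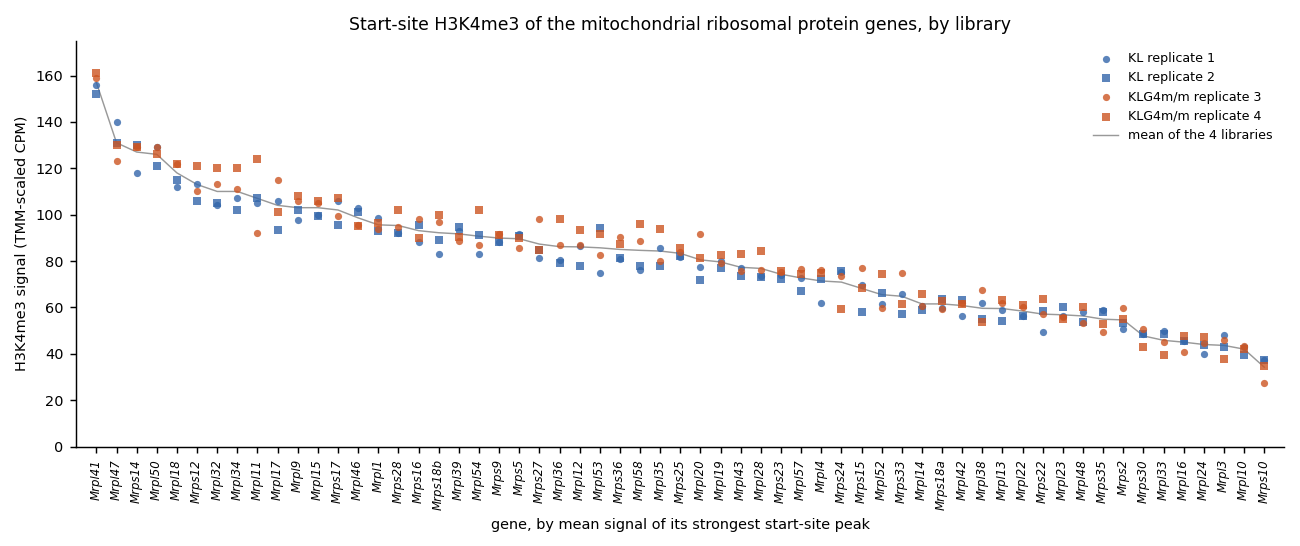
H3K4me3 signal (TMM-scaled CPM, y axis) of the strongest start-site peak of each of the 59 genes (x axis, by mean signal), with a point for each library (blue KL, orange KLG4m/m) and a grey line for the mean. Signal runs from 157 CPM at *Mrpl41* to 34.2 CPM at *Mrps10*, and blue and orange points lie near each other along the order.

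By particle, 40 of 51 large subunit genes and 18 of 26 small subunit genes were listed, and *Mrps36*, which is named in the series but belongs to the 2-oxoglutarate dehydrogenase complex, was listed too. *Mrps18a* and *Mrps30* were counted with the large subunit, where their proteins sit. The median start-site signal was 78.5 CPM for the large subunit (42 peaks) and 83.3 CPM for the small subunit (19 peaks). Genes with bacterial counterparts had a median of 85.2 CPM (36 peaks) and those specific to mitochondria 72.7 CPM (25 peaks). Interquartile ranges of these classes overlapped (59.2 to 103 CPM and 57.1 to 87.3 CPM for the last pair).

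Between KLG4m/m and KL cells the mark at these starts differed little. Of the 62 start-site peaks 0 were higher and 0 lower at an adjusted p under 0.05 by edgeR's quasi-likelihood test over all peaks. In the background of all start-site peaks 2.89% were higher and 8.43% lower. Among the 4413 start-site peaks within the members' interquartile signal range, 2.47% were higher and 4.8% lower. At an unadjusted p under 0.05, 4 member start-site peaks were higher and 0 lower, beside 11% and 17% of all start-site peaks. DESeq2 called 0 of them, beside 0.127% higher and 1.53% lower of all start-site peaks with an adjusted p, and limma on log2(CPM + 1) called 0, beside 2.53% and 8.45%. The median log2 fold change was 0.072 (interquartile range 0.019 to 0.13), 48 of 62 values were above 0, and the range was -0.28 to 0.26. By class the median was 0.0724 for the large and 0.0555 for the small subunit, and 0.0742 for proteins with bacterial counterparts and 0.0519 for those specific to mitochondria. The median was 0.00242 over all start-site peaks and 0.0507 over those in the members' interquartile signal range. Values above 0 were 8600 of 17073 and 2779 of 4413 in these 2 sets, beside 48 of 62 here. They were 50 of 70 for respiratory chain subunit genes and 38 of 60 for cytosolic ribosomal protein genes, and these shares were not tested against each other. The fold change moved with signal in general: over all start-site peaks its median was -0.11 below 10 CPM, -0.092 from 10 to 40 CPM, 0.03 from 40 to 100 CPM and 0.091 from 100 CPM, and the members in the last 2 classes stood at 0.064 (46 peaks) and 0.073 (13 peaks).

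The median absolute log2 ratio at the member start-site peaks was 0.0712 between the KL libraries, 0.107 between the KLG4m/m libraries and 0.0921 to 0.112 for the 4 pairs of a KL and a KLG4m/m library. Over all listed peaks, the chi-square per degree of freedom was 1.13 and 1.23 within the groups and 2.37 to 2.8 between them. The 95% interval of the fold change had a median half-width of 0.20, and for 61 of the 62 peaks it lay between -0.5 and 0.5. These data thus set a limit on the size of a change at each start rather than show that it is 0. Exact permutation of 2 against 2 libraries cannot bring the two-sided p of any 1 peak below 0.333.

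The start-site peak with the smallest p was that of *Mrpl58* (chr11:115294432-115294832), the peptidyl-tRNA hydrolase built into the large subunit, whose promoter is printed above. It held 265 and 270 reads in KL and 305 and 310 reads in KLG4m/m cells. Its log2 fold change was 0.26 (95% interval 0.069 to 0.45), with an edgeR adjusted p of 0.0802. *Mrpl36*, a small protein of the large subunit with a bacterial counterpart, held 280 and 275 against 299 and 317 reads (0.21, adjusted p = 0.166). *Mrpl20* held 269 and 249 against 316 and 262 reads (0.21, adjusted p = 0.169), which on the CPM scale is 77.4 and 71.7 against 91.6 and 81.1. *Mrps18b* held 289 and 309 against 334 and 322 reads (0.19, adjusted p = 0.183). At the other end stood *Mrps10* with 130 and 130 against 94 and 112 reads (-0.28, 95% interval -0.58 to 0.021; -0.11 without KLG4m/m replicate 3 and -0.45 without replicate 4), *Mrpl33* with 173 and 169 against 155 and 128 reads (-0.22), and *Mrps35* with 205 and 202 against 170 and 171 reads (-0.20). None of these passed the test. Of the other printed promoters, *Mrpl32*, with its run of NRF1 letters, held 360 and 363 against 388 and 389 reads (0.16, adjusted p = 0.232), and *Mrps27* held 283 and 294 against 339 and 274 reads (0.14, adjusted p = 0.365). These genes outside the naming rule were chosen after their values were seen.

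**Figure D3:**
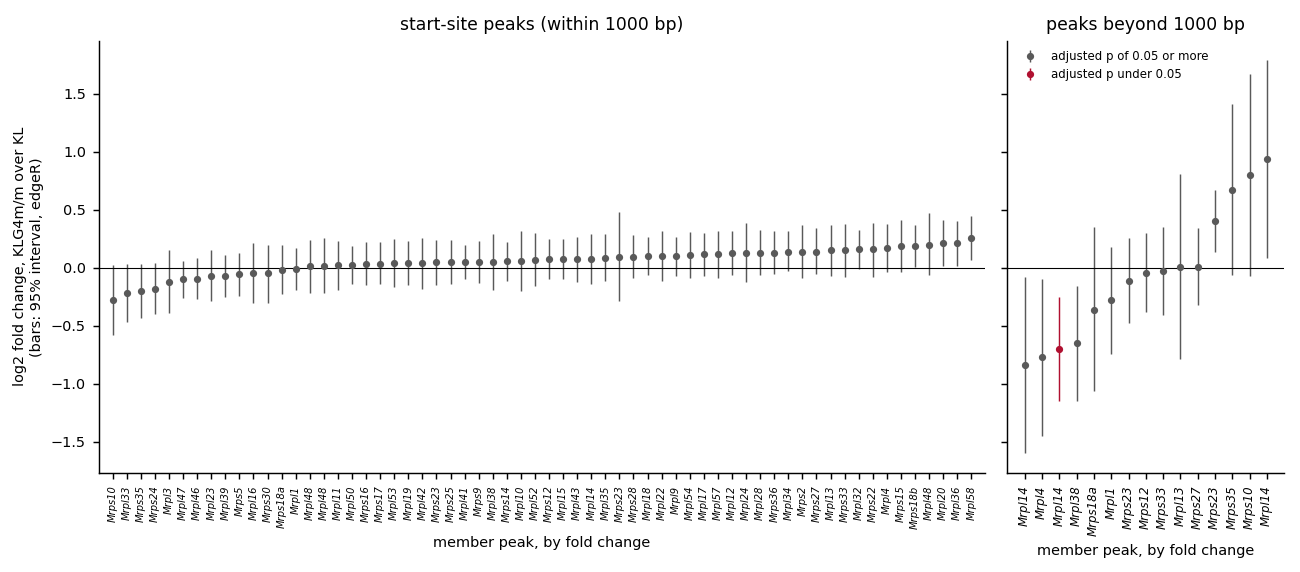
Log2 fold change (KLG4m/m over KL, y axis) of each of the 77 member peaks with its 95% interval from edgeR, ordered by fold change; left, 62 start-site peaks, right, 15 peaks farther away. Start-site values lie between -0.28 and 0.26 and none passed the test; the red point on the right is the *Mrpl14* peak at -0.70.

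The remaining 15 peaks, of 12 genes, lay more than 1000 bp from an annotated start: 3 in promoter flanks, 5 in exons, 4 in introns and 3 between genes. They were weak (median 11.8 CPM, 3.78 to 41.1 CPM, 6 to 167 reads per library), and several lay in other genes. Of all 77 member peaks 0 were higher and 1 was lower, and this 1 was among the 15. Over all listed peaks 3.1% were higher and 5.52% lower, and over the 18413 peaks beyond 1000 bp 3.29% were higher and 2.82% lower. At an unadjusted p under 0.05, 6 of the 77 were higher and 4 lower, beside 11.2% and 13.5% of all peaks. DESeq2 called 0 higher and 0 lower of the 70 members for which it gave an adjusted p, beside 0.139% and 1.03% of all peaks. With limma on log2(CPM + 1), 0 were higher and 1 was lower, beside 2.69% and 5.44%.

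The peak that passed belongs by name to *Mrpl14*, a large subunit protein that faces the small subunit and binds the ribosome silencing factor MALSU1. It lies on chromosome 17 at 46004594 to 46004994, inside the gene, with its center 7519 bp downstream of the main start. Its nearer edge lies 1660 bp before the start of a shorter predicted transcript. It held 54 and 63 reads in KL and 31 and 38 reads in KLG4m/m cells, which is 16.8 ± 1.85 CPM against 10.4 ± 1.96 CPM (SD, n = 2 each). Both KLG4m/m libraries lay below both KL libraries, an order whose exact two-sided permutation p is no smaller than 0.333. The log2 fold change was -0.70 ± 0.22 SE (95% interval -1.15 to -0.25), with an edgeR adjusted p of 0.0449, close to the threshold. With DESeq2 the fold change was -0.70 with an adjusted p of 0.557, and the adjusted p was 0.237 without KL replicate 2, 0.353 without KLG4m/m replicate 3 and 0.337 without KLG4m/m replicate 4. The adjusted p of this peak over all alternatives ran from 0.0254 to 0.557. Of the 16 other listed peaks within 100 kb, 0 passed the test by edgeR.

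At the main start of *Mrpl14*, the promoter printed above, the difference did not pass the test, with 211 and 205 in KL and 209 and 212 reads in KLG4m/m cells and a log2 fold change of 0.075 ± 0.11 SE (adjusted p = 0.708). The gene's other 2 peaks were weak. The one 7701 bp upstream of the main start held 14 and 6 against 20 and 17 reads (0.94, adjusted p = 0.159). The one 17181 bp downstream, past the end of the gene, held 19 and 26 against 9 and 15 reads (-0.84, adjusted p = 0.157). Without 1 library these values ranged from 0.46 to 1.66 and from -1.30 to -0.48. The promoter's interval was -0.14 to 0.29.

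*Mrps23*, a small subunit protein specific to mitochondria, also had 4 peaks, among them the member peak just outside the threshold. That peak (chr11:88078516-88078916) lies 6016 bp before the nearest annotated *Mrps23* start, within an exon of the neighboring gene *Cuedc1*, and was as strong as 41.1 CPM. It held 116 and 130 reads in KL and 167 and 146 reads in KLG4m/m cells (log2 fold change 0.40, 95% interval 0.14 to 0.67, edgeR adjusted p = 0.0506). It passed at an adjusted p of 0.0497 with scaling from start-site peaks and of 0.048 when weak peaks were left out. It did not pass with DESeq2 (0.567), limma (0.0586) or scaling by total reads (0.0569), nor without any 1 library (0.0862 to 0.337). The 2 start-site peaks of *Mrps23* held 61 and 58 against 66 and 56 reads (0.093, adjusted p = 0.804) and 257 and 251 against 259 and 245 reads (0.046, adjusted p = 0.811), and the intergenic peak beyond the gene held 69 and 70 against 61 and 63 reads (-0.11, adjusted p = 0.759). *Mrpl48*, another protein specific to mitochondria, had 3 start-site peaks, the main one and 2 centered 17070 and 25342 bp downstream of the main start. They held 202 and 187 against 183 and 194 reads, 162 and 170 against 162 and 161 reads, and 122 and 128 against 148 and 129 reads. Their log2 fold changes were 0.013, 0.018 and 0.20, and none passed the test.

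**Figure D4:**
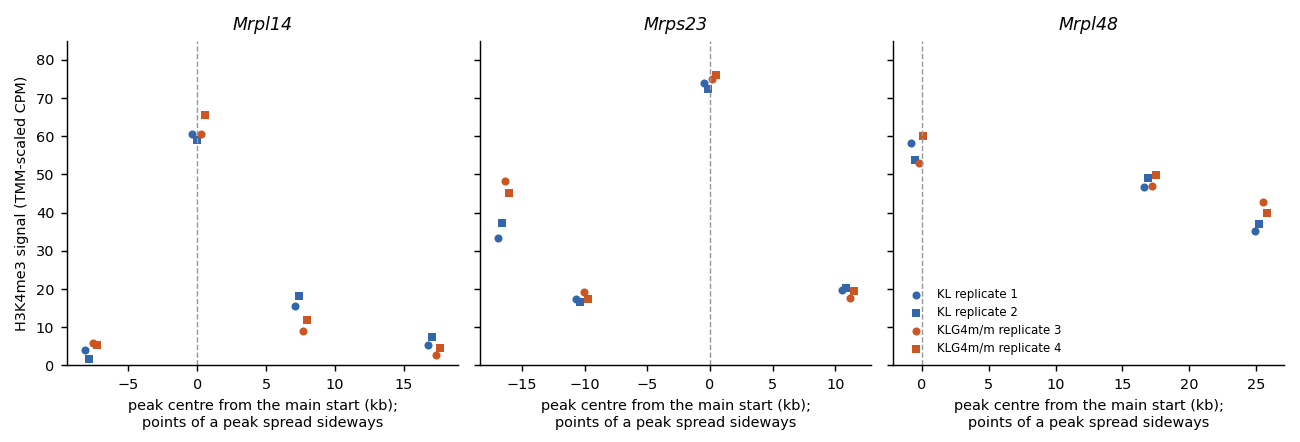
H3K4me3 signal (TMM-scaled CPM, y axis) of every listed peak of *Mrpl14*, *Mrps23* and *Mrpl48* against the distance of the peak's center from the start of the gene's strongest start-site peak (kb, x axis; dashed line at the start), with 1 point per library (blue KL, orange KLG4m/m). The main peaks overlap or lie close between groups, while the *Mrpl14* peak 7519 bp downstream is lower and the *Mrps23* peak 16498 bp upstream higher in the orange points.

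Of the remaining outer peaks, that of *Mrpl38*, in an exon of *Fbf1*, held 58 and 42 against 28 and 33 reads (-0.65, adjusted p = 0.0898; 0.0487 without KL replicate 2). That of *Mrpl4*, 2033 bp before a start, held 25 and 25 against 15 and 13 reads (-0.77, adjusted p = 0.14). At their starts neither gene passed the test: *Mrpl38* held 216 and 191 against 232 and 174 reads (0.053), and *Mrpl4* 216 and 251 against 263 and 242 reads (0.17). These genes were chosen after their values were seen. The fold changes of the 15 outer peaks ran from -0.84 to 0.94, with a median of -0.041 and 9 of 15 below 0. The median over all 18413 peaks beyond 1000 bp was 0.015.

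When the reads of all peaks of a gene were summed, 0 of the 59 member genes were higher and 0 lower by edgeR, beside 5.38% and 9.63% of all 20871 genes. At an unadjusted p under 0.05, 4 were higher and 0 lower, beside 12.4% and 16.4%. DESeq2 called 0, beside 0.66% higher and 1.86% lower over all genes, and limma called 0, beside 4.49% and 9.38%. The gene nearest to the threshold was *Mrpl58* (adjusted p = 0.0505). The median log2 fold change of the member genes was 0.064.

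The families most like this one had a few calls at their starts. Of the 60 start-site peaks of cytosolic ribosomal protein genes 1 was higher and 5 were lower (median log2 fold change 0.0357), and of the 70 of respiratory chain subunit genes 2 were higher and 4 lower (0.0735). Over all start-site peaks 2.89% were higher and 8.43% lower, and in the members' interquartile signal range 2.47% and 4.8%. The mitoribosomal count of 0 of 62 was not tested against the like families or these shares. The interquartile ranges of start-site signal were 59.2 to 87.6 CPM for the cytosolic and 66.8 to 96.4 CPM for the respiratory chain genes, beside 58.7 to 94.8 CPM here.

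**Figure D5:**
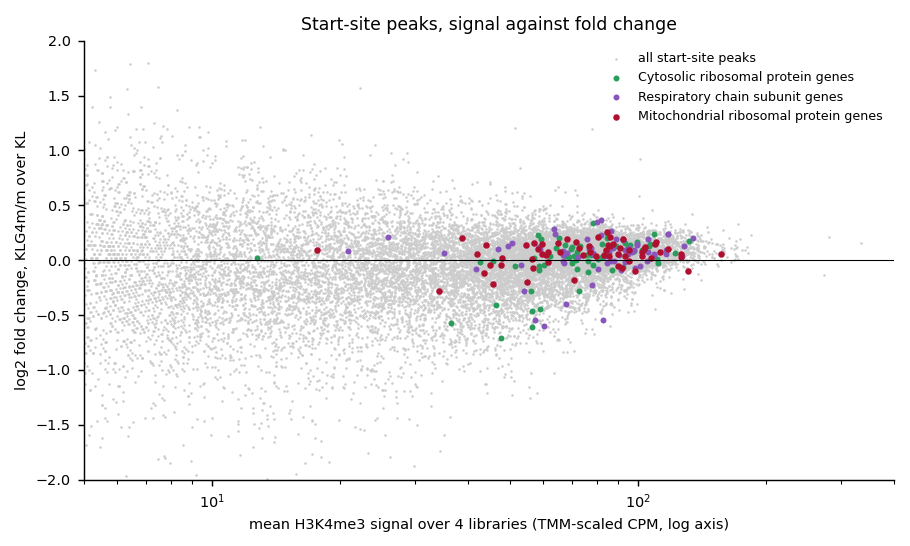
Mean H3K4me3 signal (TMM-scaled CPM, log x axis) against log2 fold change (y axis) for all start-site peaks (grey), with the mitoribosomal (red), cytosolic ribosomal (green) and respiratory chain (purple) genes; 1044 grey peaks fall outside the axes. The red points lie between -0.28 and 0.26, in the dense band of strong peaks, and some green and purple points lie lower, down to -0.71 and -0.60.

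Other genes of mitochondrial translation were listed by role, and their reads were summed over the peaks of each gene. Of 5 mitoribosomal proteins with other symbols 2 were listed, *Dap3* and *Aurkaip1*, and neither passed (0.083 and -0.074). Of 27 assembly factors of the mitoribosome 21 were listed, 0 were higher and 3 lower. *Rcc1l*, a factor of ribosomal RNA handling, fell from 108 and 99 to 67 and 52 reads (-0.74, edgeR adjusted p = 0.000966). *Noa1*, a GTPase needed for the small subunit, fell from 445 and 454 to 379 and 338 reads (-0.27, adjusted p = 0.0121). *Malsu1*, whose protein binds that of *Mrpl14*, fell from 240 and 288 to 214 and 202 reads (-0.29, adjusted p = 0.0456).

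Of 19 translation factors 15 were listed, 0 were higher and 1 lower: *Guf1*, a relative of a bacterial elongation factor, fell from 173 and 184 to 130 and 120 reads (-0.46, adjusted p = 0.00771). Of 20 mitochondrial aminoacyl-tRNA synthetases, which load the tRNAs, 16 were listed, 0 were higher and 2 lower. *Iars2*, for isoleucine, fell from 248 and 254 to 159 and 130 reads (-0.74, adjusted p = 3.93e-07), and *Cars2*, for cysteine, from 373 and 353 to 255 and 253 reads (-0.46, adjusted p = 8.99e-05). Of 8 genes of mitochondrial DNA transcription and replication 6 were listed and 0 passed by edgeR. The median fold changes of these 5 lists lay between -0.0071 and 0.089, beside 0.0023 over all genes, and their few calls are to be read against the 9.63% of all genes that were lower and the 5.38% that were higher.

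Of 10 nuclear regulators of mitochondrial genes 8 were listed, 0 were higher and 2 lower, beside 5.38% and 9.63% of all genes. *Yy1*, one of the factors whose letters were searched for above, fell from 374 and 378 to 274 and 218 reads (-0.56 ± 0.09 SE, adjusted p = 2.11e-06), and *Pprc1*, a coactivator of the PGC-1 family, from 343 and 350 to 289 and 257 reads (-0.29, adjusted p = 0.0192). *Nrf1* held 146 and 165 against 129 and 109 reads and did not pass (-0.33, adjusted p = 0.0846). Of the genes for GABP subunits, *Gabpa* had no listed peak, so the mark there could not be compared. *Gabpb1* held few reads (22 and 13 against 16 and 11, -0.32, adjusted p = 0.638). *Gabpb2* held 214 and 210 against 225 and 193 reads (0.034, adjusted p = 0.876), and neither *Gabpb1* nor *Gabpb2* passed. The 8 members with YY1 letters in their window had a median log2 fold change of 0.066 at their strongest start-site peak, and the 43 without had 0.057. For ETS letters the medians were 0.087 (20 genes) and 0.052 (31 genes), and for NRF1 letters 0.10 (8 genes) and 0.052 (43 genes).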

How the data were processed

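H3K4me3 CUT&Tag libraries of 2 KL and 2 KLG4m/m samples were analysed; 1 further allele that both groups share is not reported here. According to the methods and the submitters' processing notes, the authors trimmed the reads, aligned them with BWA 0.7.15, removed duplicates with Picard 2.17.3, called peaks with MACS2 2.2.7.1 and annotated them with HOMER 4.11.1. The authors deposited 1 table of 35486 peaks with whole counts of reads per peak and library, which were used here, and CPM columns, which equal these counts scaled by the reads in peaks and were not used. Columns of the authors' own comparison (log2 fold change, average log2 CPM, F statistic, p-value and adjusted p-value) were not used either. The table's signed distance to the nearest start defined start-site peaks (1000 bp or less). Contig names and start positions of the table differ from GRCm38, the build of the promoter windows, and its build was not settled. No per-sample column was left without a sample.

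Counts per peak, or summed per gene, were tested with edgeR 4.0.16 (quasi-likelihood F test, TMM scaling, no covariate, no filter on low counts, two-sided) in R 4.3.3, with Benjamini-Hochberg adjustment over all 35486 peaks or 20871 genes and a threshold of 0.05. Intervals are 95% intervals on edgeR's moderated degrees of freedom. The libraries of a group differed by slightly more than counting noise (chi-square per degree of freedom 1.13 and 1.23, edgeR common dispersion 0.00133). Each was counted as 1 replicate, although these values cannot show that the libraries came from separate mice. Reads per peak limit the precision: member start-site peaks held at least 56 reads, the outer peaks as few as 6. The peak test and the motif search were tested on simulated data. DESeq2 1.42.0, limma 3.58.1 on log2(CPM + 1), other scalings, a minimum of 10 CPM and leaving out each library were the alternatives. The motif search and the opposite-strand starts used RefSeq promoter windows of GRCm38.p6, matched by symbol, both strands (Python 3.11.15).

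The members, the gene lists, the compared families and the motifs were chosen with earlier results of these data known. Named by rule were: members past the threshold, the 4 genes with the highest and the 4 with the lowest start-site signal, genes with 3 or more peaks, members within 1 Mb of *Gpx4* or *Stk11* peaks, members whose libraries of 1 group all held at most 3 reads (0 were found), and up to 4 list genes past the threshold per list.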

Additional observations from a re-analysis of the deposited data

How the results depend on the processing

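Depth limits what can be seen: at the member starts the 95% intervals allow changes of a median of 0.20 on the log2 scale in either direction, and outer peaks with 6 to 167 reads allow more. The count of lower member peaks, 1 by edgeR with TMM, was 0 with DESeq2, 4 at an unadjusted p under 0.05, and 0 to 1 when 1 library was left out. It was 0 without KLG4m/m replicate 3 or 4, and without KL replicate 2 the 1 peak was that of *Mrpl38* in place of that of *Mrpl14*. The count of higher peaks, 0, was 1 with scaling from start-site peaks and 1 with a minimum of 10 CPM (the outer *Mrps23* peak in both), and 6 at an unadjusted p under 0.05. The count of higher genes, 0, was 1 under these same 2 settings (*Mrpl58*, adjusted p = 0.044 and 0.0488) and 4 at an unadjusted p under 0.05. The count of lower genes was 0 under each alternative run. The cause of these shifts was not tested. The median start-site fold change of 0.072 was 0.0519 with a minimum of 10 CPM and 0.0518 to 0.0748 without 1 library. Relative to all start-site peaks under the same setting, it was 0.0553 to 0.0783 over all settings.

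Of the 19 named peaks, 2 of the 3 of *Mrpl48* changed sign with a minimum of 10 CPM (-0.0022 and -0.0075). When 1 library was left out, signs changed for the middle *Mrpl48* peak (-0.022 to 0.057), the main *Mrpl48* peak (-0.075 to 0.098), *Mrpl10* (-0.0014 to 0.12), *Mrpl3* (-0.27 to 0.013), *Mrpl50* (-0.016 to 0.071) and *Mrps14* (-0.011 to 0.12), none of which passed the test under any setting. A fit that left 1 library in a group assumed that it varies like the others. No paired analysis was possible because the KL libraries carry the numbers 1 and 2 and the KLG4m/m libraries 3 and 4.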
